A study of Homo sapiens with 18 samples.

Results

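The genes described here encode cell-surface receptors of interleukins, interferons and colony-stimulating factors, measured as transcripts in NB4 cells. Members were taken by symbol from probe sets annotated to a single gene: symbols that begin with IL, a number and R (without IL1RN), and in addition IL6ST, CSF1R, CSF2RA, CSF2RB, CSF3R, IFNGR1, IFNGR2, IFNAR1 and IFNAR2. This gave 53 probe sets of 50 genes, out of 18417 genes measured by such probe sets, and each gene was read from its probe set with the highest mean. The symbol pattern also took in IL36RN, which encodes an antagonist of the IL-36 receptor and not a receptor, so 49 of the 50 genes are receptor chains or receptor-like proteins. CSF2RA, IL3RA and IL9R had a second probe set with the same values.

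NB4 is a human cell line of acute promyelocytic leukemia, in which granulocyte precursors are arrested, and all-trans retinoic acid (ATRA) drives it towards neutrophil-like cells. The groups were cells labelled TG2 knockout, either untreated or given 1 µM ATRA for 48 or 72 h, and wild-type cells in the same 3 states. TG2 is the product of TGM2 and crosslinks proteins. Each of the 6 groups held 3 arrays, described as biological replicates, and all cells were NB4 in the same serum-containing medium. The labels do not say how the knockout line was made or whether it is a single clone, and its sample codes carry the letters KD.

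Most of these receptors lack an enzyme of their own and work as pairs: a chain specific to one cytokine joins a chain shared by several, such as CSF2RB, IL2RG, IL6ST, IL10RB or IL1RAP, and both must be present for signalling. Type I and type II receptors bind Janus kinases, which phosphorylate STAT transcription factors, whereas the IL-1 family receptors signal through MYD88 and IRAK kinases and the IL-17 receptors through TRAF3IP2. In the myeloid lineage the G-CSF receptor is known for granulocyte production, the GM-CSF receptor for granulocytes and macrophages together, and the M-CSF receptor for monocytes and macrophages.

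The values are log2 signals of whole-transcript Affymetrix arrays, and array medians lay between 6.12 and 6.26. The means of the receptor probe sets ran from the 5.3 percentile of all probe sets (IL13RA2) to the 94.8 percentile (IL2RG), and 26 of the 50 lay above the median probe set. The median SD between arrays of a group was 0.0666 for the receptor genes in untreated knockout and 0.0662 in untreated wild-type cells, and between 0.22 and 0.27 in the 4 ATRA groups. A first principal component holding 57.1% of the variance set the ATRA arrays (17.5 to 56.6) apart from the untreated ones (-89.9 to -84.7), with wild-type 48 h replicate 1 at 17.5. TGM2 read 6.30, 6.51 and 6.36 in untreated knockout, 11.01, 10.56 and 11.29 in knockout at 48 h, and 11.61, 10.87 and 11.25 in knockout at 72 h. In wild-type cells TGM2 read 6.40, 6.27 and 6.61 untreated, 12.34, 12.06 and 12.40 at 48 h, and 12.54, 12.19 and 12.39 at 72 h. TGM2 was thus lower in knockout than in wild-type cells at 48 h, at 40.2% of wild-type (adjusted p = 0.0345 in limma), and at 72 h, at 45.7% (adjusted p = 0.0267). The difference between untreated cells was -0.04 (adjusted p = 1). Whether the probe set lies in the altered region of TGM2 is not known here. The 6 measured promyelocyte markers, on average, stood at -0.96 to -0.44 relative to untreated in the knockout arrays at 72 h and at -0.64 to -0.34 in the wild-type arrays. Among them CTSG, ANPEP and MPO were called lower in both genotypes, and AZU1 in knockout and AZU1, PRTN3 and ELANE in wild-type cells were called higher. All 6 measured neutrophil maturation markers were called higher in knockout and in wild-type cells at 72 h. Their mean log2 level was 0.85 to 1.30 above untreated in the knockout arrays at 72 h and 1.10 to 1.88 above untreated in the wild-type arrays. Monocyte and macrophage markers stood 0.30 to 0.44 above untreated in the knockout arrays at 72 h (2 of 6 called higher), and 0.47 to 0.78 in the wild-type arrays (5 of 6). Lymphocyte markers stood 0.03 to 0.21 above untreated in the knockout arrays at 72 h and 0.03 to 0.33 in the wild-type arrays, averages over calls in both directions: of 8 markers, 1 was called higher and 2 lower in knockout cells, and 2 higher and 2 lower in wild-type cells. Erythroid and megakaryocyte markers stood 0.20 to 0.52 above untreated in knockout and 0.32 to 0.49 in wild-type arrays. Eosinophil, basophil and mast cell markers stood at -1.69 to -1.34 relative to untreated in the knockout arrays at 72 h and at -1.76 to -1.37 in the wild-type arrays, with 3 of 5 called lower in each and 1 of 5, CLC, called higher in wild-type cells (1.45). In such bulk samples a change in the share of cells of a type and a change of RNA per cell cannot be told apart, and what part the shifts of these marker lists have in the receptor values was not tested.

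Under ATRA the strongest receptor changes were gains of CSF3R, IFNGR1, both chains of the IL-10 receptor, IL18RAP and IL31RA, and a loss of IL17RA. A gene was called at a limma p, adjusted over all 33297 probe sets of a comparison, under 0.05. In knockout cells 20 of the 50 genes were called at 48 h, 12 higher and 8 lower, beside 41.4% of all probe sets (21.5% higher and 19.9% lower). At 72 h 16 were called in knockout cells, 10 higher and 6 lower, beside 42% of all probe sets (22.8% higher and 19.2% lower). In wild-type cells 21 were called at 48 h, 12 higher and 9 lower, beside 38.9% of all probe sets (19.3% higher and 19.6% lower). At 72 h 22 were called in wild-type cells, 16 higher and 6 lower, beside 44% of all probe sets (23.1% higher and 21% lower). These shares of 40%, 32%, 42% and 44% lie near or below those of the whole array, so the number of receptor genes that moved is not a result about receptors. The median change of the 50 genes was 0.20 at 48 h and 0.12 at 72 h in knockout cells, beside 0.14 and 0.13 for all probe sets. In wild-type cells it was 0.14 and 0.26, beside 0.10 and 0.12.

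The 48 and 72 h comparisons of a genotype share its untreated arrays. In all 4 ATRA comparisons 7 genes were called higher (CSF3R, IFNGR1, IL10RB, IL11RA, IL12RB1, IL18RAP and IL31RA) and 3 lower (IL17RA, IL17RE and IL27RA). A further 21 were called in 1 to 3 of the comparisons, and 19 in none. No gene was called higher in one ATRA comparison and lower in another. The shares of all probe sets with such calls over the 4 comparisons were not counted, so these numbers are not a result about receptors. Of the 79 calls, 47 held under every alternative processing and every single array left out, and these came from 19 genes. Called changes of at least 2-fold were made for 4 of the 50 genes in knockout cells at 48 h (12.9% of all probe sets) and for 7 at 72 h (13.8%). In wild-type cells there were 8 at 48 h (13.1%) and 7 at 72 h (15.8%). The 8 genes with such a change in any comparison were 6 that were higher and 2 that were lower, IL17RA and IL2RG.

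**Figure D1:**
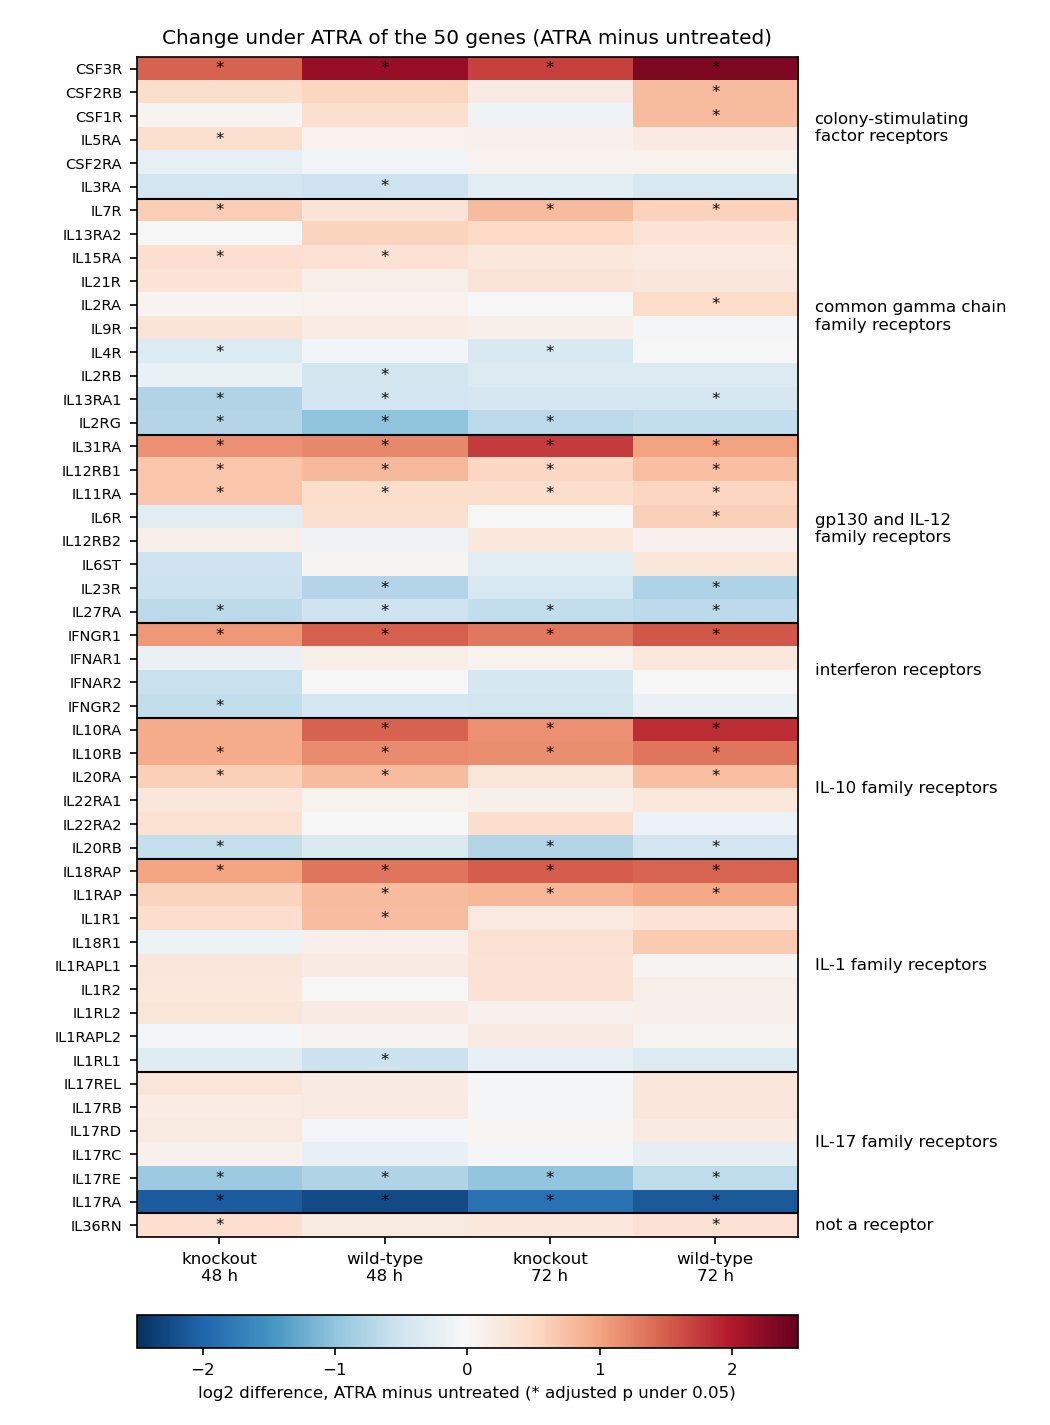
Change of each of the 50 genes under ATRA as a colour scale of the log2 difference from untreated cells of the same genotype, grouped by receptor family, with a star where the adjusted p was under 0.05. The strongest red row is CSF3R (1.48, 2.18, 1.72 and 2.33 from left to right), the strongest blue row is IL17RA (-2.07, -2.23, -1.87 and -2.10), and 19 rows carry no star.

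Stretches upstream of 3 of the genes that rose are shown, each called in all 4 ATRA comparisons. These 3 were picked by name, and all of them hold motif matches. IFNGR1 was also called in all 4, but its window held no match and is not shown. The stretches shown are the 250 bases before the start in the RefSeq promoter table (GRCh38.p14), read 5′ to 3′ on the gene's strand. Capitals mark matches to the motifs given with the promoter results further on. The CSF3R stretch is chr1:36483315-36483564 on the minus strand, that of IL10RB is chr21:33266117-33266366 on the plus strand and that of IL18RAP is chr2:102418371-102418620 on the plus strand.
CSF3R: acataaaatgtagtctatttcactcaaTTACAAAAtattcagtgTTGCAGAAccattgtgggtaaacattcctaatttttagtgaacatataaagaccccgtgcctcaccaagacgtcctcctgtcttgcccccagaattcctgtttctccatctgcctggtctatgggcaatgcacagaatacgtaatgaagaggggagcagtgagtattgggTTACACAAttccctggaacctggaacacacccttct
IL10RB: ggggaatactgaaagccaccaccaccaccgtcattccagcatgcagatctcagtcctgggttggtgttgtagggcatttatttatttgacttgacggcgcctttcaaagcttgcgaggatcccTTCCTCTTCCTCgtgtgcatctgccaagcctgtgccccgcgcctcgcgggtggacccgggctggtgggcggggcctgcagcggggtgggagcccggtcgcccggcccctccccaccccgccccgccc
IL18RAP: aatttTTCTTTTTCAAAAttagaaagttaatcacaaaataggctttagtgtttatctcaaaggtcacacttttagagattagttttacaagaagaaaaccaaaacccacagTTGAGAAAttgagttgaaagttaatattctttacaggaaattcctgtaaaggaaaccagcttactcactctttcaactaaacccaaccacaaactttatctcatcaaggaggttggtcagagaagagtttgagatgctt

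Among the colony-stimulating factor receptors, CSF3R, which binds G-CSF, the granulocyte growth factor, was the one that rose in every ATRA comparison. It read 8.08, 8.05 and 8.04 in untreated knockout cells, 9.38, 9.44 and 9.78 at 48 h, and 10.21, 9.17 and 9.94 at 72 h. In wild-type cells CSF3R read 7.72, 7.66 and 7.73 untreated, 9.89, 9.65 and 10.12 at 48 h, and 10.25, 9.77 and 10.07 at 72 h. Every ATRA array stood above every untreated array of its genotype. In knockout cells CSF3R rose 2.78-fold at 48 h (log2 difference 1.48 ± 0.21, SE, n = 3 per group; adjusted p = 3.87e-05 in limma) and 3.29-fold at 72 h (1.72, adjusted p = 9.48e-06). In wild-type cells CSF3R rose 4.54-fold at 48 h (2.18, adjusted p = 7.64e-07) and 5.02-fold at 72 h (2.33, adjusted p = 3.44e-07). These 4 calls held in all 16 alternatives run for each.

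CSF1R, the receptor of macrophage colony-stimulating factor and of IL-34, was called in wild-type cells at 72 h and in no other ATRA comparison. In knockout cells CSF1R read 6.33, 6.26 and 6.32 untreated, 6.43, 6.14 and 6.55 at 48 h, and 6.37, 5.97 and 6.33 at 72 h. In wild-type cells CSF1R read 6.41, 6.42 and 6.32 untreated, 6.68, 6.54 and 7.12 at 48 h, and 7.52, 6.63 and 7.38 at 72 h. The knockout groups overlap, whereas every wild-type ATRA array stood above the untreated ones. The change at 72 h was -0.08 ± 0.20 in knockout cells (adjusted p = 0.773, 95% interval -0.51 to 0.35) and 0.79 ± 0.20 in wild-type cells (1.73-fold, adjusted p = 0.00528).

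CSF2RB, the beta chain shared by the GM-CSF, IL-3 and IL-5 receptors, was likewise called in wild-type cells at 72 h alone. In knockout cells CSF2RB read 6.96, 6.95 and 6.98 untreated, 7.42, 7.24 and 7.54 at 48 h, and 7.72, 6.63 and 7.16 at 72 h. In wild-type cells CSF2RB read 7.18, 7.10 and 7.06 untreated, 7.49, 7.23 and 8.22 at 48 h, and 8.19, 7.53 and 8.0 at 72 h. Replicate 2 was the lowest array of every ATRA group. CSF2RB was called in wild-type cells at 72 h (0.79 ± 0.25, 1.73-fold, adjusted p = 0.0192), where the call was lost without untreated replicate 3 or without 72 h replicate 1 or 3, with an adjusted p of at most 0.0779. The change in knockout cells at 72 h was 0.21 ± 0.25 (adjusted p = 0.533).

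The alpha chains that pair with CSF2RB were not called at 72 h. CSF2RA, which binds GM-CSF, read 7.46, 7.61 and 7.53 in untreated knockout cells, 7.42, 6.97 and 7.60 at 48 h, and 7.96, 7.33 and 7.59 at 72 h. In wild-type cells CSF2RA read 7.54, 7.60 and 7.64 untreated, 7.56, 7.05 and 7.99 at 48 h, and 7.65, 7.42 and 7.95 at 72 h. Treated and untreated arrays overlap in each comparison, and its changes lay between -0.20 and 0.09, each ± 0.22. IL3RA, the alpha chain for IL-3, was called lower in wild-type cells at 48 h (-0.52 ± 0.19, adjusted p = 0.0423). IL5RA, the alpha chain for IL-5, was called higher in knockout cells at 48 h (0.41 ± 0.14, adjusted p = 0.0287). Both calls were lost when single arrays were left out, with adjusted p of at most 0.129 for IL3RA in that setting and 0.278 for IL5RA under quantile normalization or without an array.

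**Figure D2:**
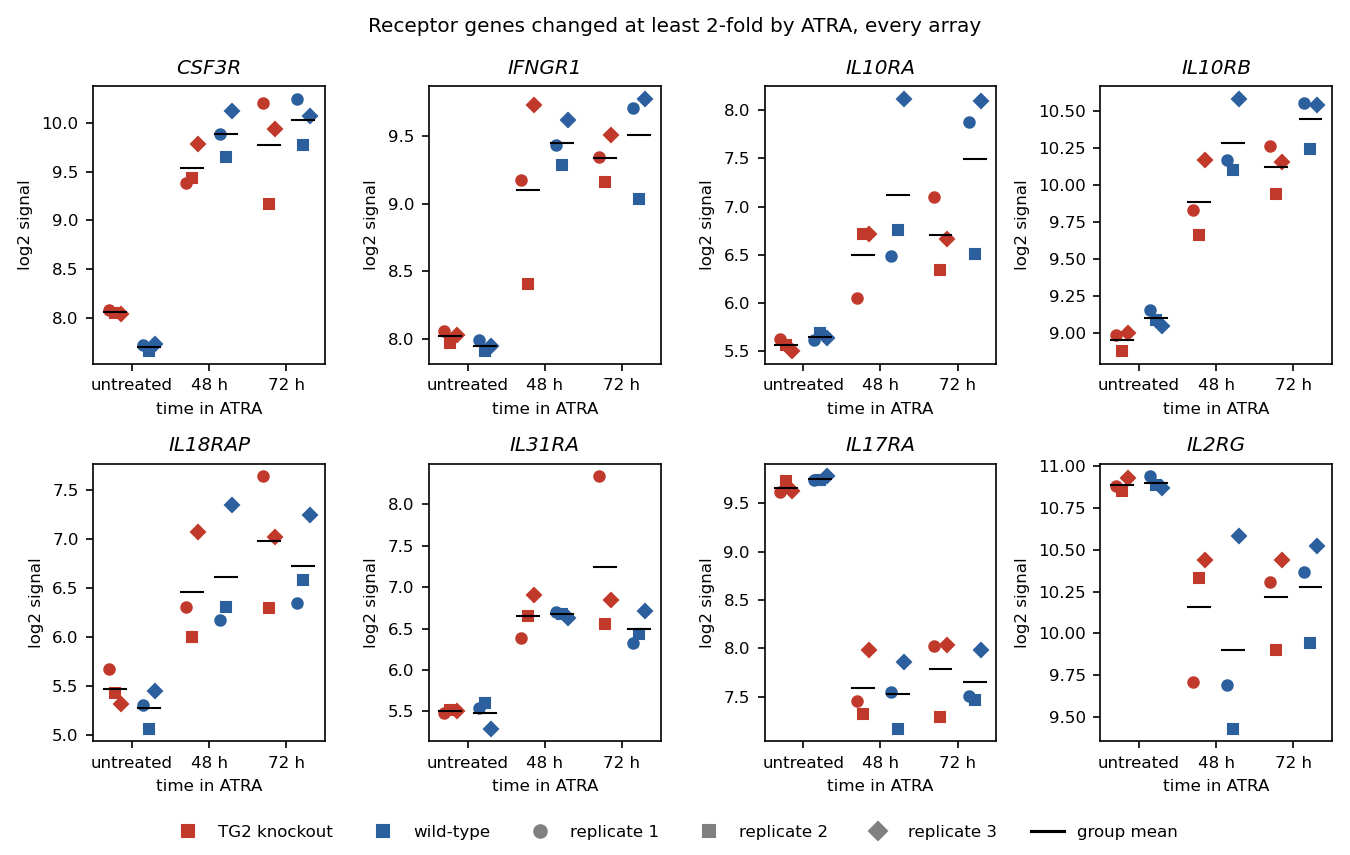
Log2 signal of every array for the 8 genes called with a change of at least 2-fold, with knockout (red) left of wild-type (blue) at each time and a bar at the mean of 3 arrays. CSF3R, IFNGR1, IL10RA, IL10RB, IL18RAP and IL31RA stand higher and IL17RA and IL2RG lower under ATRA, and arrays of one ATRA group lie as far apart as 6.49 and 8.12 for IL10RA in wild-type cells at 48 h.

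Of the interferon receptors, only the ligand-binding chain for interferon gamma, IFNGR1, was called higher, and it was so in all 4 ATRA comparisons. It read 8.06, 7.97 and 8.03 in untreated knockout cells, 9.18, 8.41 and 9.73 at 48 h, and 9.35, 9.16 and 9.51 at 72 h. In wild-type cells IFNGR1 read 7.99, 7.91 and 7.95 untreated, 9.44, 9.29 and 9.62 at 48 h, and 9.71, 9.04 and 9.78 at 72 h. No ATRA array overlapped the untreated ones. The gain was 2.12-fold at 48 h in knockout cells (1.09 ± 0.25, adjusted p = 0.00238) and 2.5-fold at 72 h (adjusted p = 0.000529). In wild-type cells IFNGR1 was 2.83-fold at 48 h (adjusted p = 0.00017) and 2.95-fold at 72 h (1.56 ± 0.25, adjusted p = 0.000103), and all 4 calls held in every alternative run.

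IFNGR2, the signalling partner that interferon gamma needs beside IFNGR1, was not called higher in any comparison. It read 8.85, 8.86 and 8.86 in untreated knockout cells, 8.10, 8.04 and 8.58 at 48 h, and 8.48, 8.25 and 8.45 at 72 h. In wild-type cells IFNGR2 read 8.76, 8.93 and 8.89 untreated, 8.13, 8.20 and 8.92 at 48 h, and 8.74, 8.46 and 8.90 at 72 h. Both knockout ATRA groups stood below the untreated knockout arrays, and the wild-type groups overlap. The one call was in knockout cells at 48 h (-0.62 ± 0.19, adjusted p = 0.015), and it was lost under quantile normalization and without 48 h replicate 1 or 2 (adjusted p of at most 0.213). The change at 72 h was -0.46 ± 0.19 in knockout cells (adjusted p = 0.0564) and -0.16 ± 0.19 in wild-type cells (adjusted p = 0.506).

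Neither chain of the receptor for the alpha and beta interferons was called in any comparison. IFNAR1 read 7.85, 7.93 and 8.01 in untreated knockout cells, 7.87, 7.10 and 8.34 at 48 h, and 7.86, 8.07 and 8.10 at 72 h. In wild-type cells IFNAR1 read 8.01, 8.11 and 8.08 untreated, 8.28, 7.96 and 8.38 at 48 h, and 8.45, 7.99 and 8.57 at 72 h. The IFNAR1 groups overlap at both times in both genotypes. IFNAR2, the chain that binds these interferons first, read 7.94, 7.97 and 7.96 in untreated knockout cells, 7.64, 6.77 and 7.81 at 48 h, and 7.77, 7.47 and 7.31 at 72 h. In wild-type cells IFNAR2 read 8.14, 8.0 and 8.01 untreated, 8.17, 7.98 and 7.95 at 48 h, and 8.50, 7.68 and 7.99 at 72 h. All 6 knockout ATRA arrays lay below the 3 untreated knockout arrays, with differences of -0.55 ± 0.23 at 48 h (adjusted p = 0.065) and -0.44 ± 0.23 at 72 h (adjusted p = 0.133). In wild-type cells the differences were -0.02 and 0.01, each ± 0.23.

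In the IL-10 family both chains of the IL-10 receptor rose, while the chains of the IL-20 receptor parted. IL10RA, the chain specific to IL-10, read 5.63, 5.56 and 5.50 in untreated knockout cells, 6.05, 6.71 and 6.72 at 48 h, and 7.10, 6.34 and 6.66 at 72 h. In wild-type cells IL10RA read 5.61, 5.69 and 5.64 untreated, 6.49, 6.76 and 8.12 at 48 h, and 7.88, 6.51 and 8.10 at 72 h. Every ATRA array lay above its untreated group, but replicate 3 at 48 h and replicates 1 and 3 at 72 h stood over 1 log2 unit above the other wild-type arrays. In wild-type cells IL10RA rose 2.78-fold at 48 h (1.48 ± 0.40, adjusted p = 0.00771) and 3.6-fold at 72 h (1.85 ± 0.40, adjusted p = 0.00138). In knockout cells IL10RA rose 2.20-fold at 72 h (1.14 ± 0.40, adjusted p = 0.0301), a call lost under quantile normalization, without any one untreated array, and without 72 h replicate 1 or 3 (adjusted p of at most 0.112). At 48 h the knockout difference was 0.93 ± 0.40 (adjusted p = 0.0701). An unnamed probe set has the same 18 values as that of IL10RA.

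IL10RB, the chain that the receptors for IL-10, IL-22, IL-26 and the lambda interferons share, varied less between arrays. It read 8.99, 8.88 and 9.0 in untreated knockout cells, 9.83, 9.66 and 10.17 at 48 h, and 10.26, 9.94 and 10.15 at 72 h. In wild-type cells IL10RB read 9.16, 9.09 and 9.05 untreated, 10.17, 10.10 and 10.58 at 48 h, and 10.55, 10.24 and 10.54 at 72 h. No ATRA array overlapped an untreated one. The gain was 1.91-fold at 48 h (0.93 ± 0.15, adjusted p = 0.000106) and 2.23-fold at 72 h (adjusted p = 1.37e-05) in knockout cells. It was 2.27-fold at 48 h (adjusted p = 1.03e-05) and 2.54-fold at 72 h (1.34 ± 0.15, adjusted p = 2.4e-06) in wild-type cells, and the 4 calls held in every alternative run.

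IL20RA, the alpha chain for IL-19, IL-20 and IL-24, was called higher in wild-type cells at 48 h (0.79 ± 0.21, adjusted p = 0.00699) and 72 h (0.76, adjusted p = 0.00806), and in knockout cells at 48 h (0.60, adjusted p = 0.0309). The knockout call was lost under both rescalings and without 1 of 4 arrays (adjusted p of at most 0.12). IL20RB, its partner, was called lower in knockout cells at 48 h (-0.59 ± 0.19, adjusted p = 0.018) and 72 h (-0.73, adjusted p = 0.00541) and in wild-type cells at 72 h (-0.48, adjusted p = 0.0476). Of these, the call in knockout cells at 72 h held in every alternative. That in wild-type cells was lost with a replicate block in the model and without any one of its 6 arrays (adjusted p of at most 0.13). The call in knockout cells at 48 h was lost without any of 3 arrays (adjusted p of at most 0.0834). IL22RA1, the signalling chain for IL-22, and IL22RA2, a secreted decoy for it, were not called under ATRA.

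Among the receptors of the gp130 and IL-12 families, IL31RA rose in all 4 comparisons. It encodes the chain specific to IL-31, which signals with the oncostatin M receptor. IL31RA read 5.48, 5.52 and 5.50 in untreated knockout cells, 6.39, 6.65 and 6.90 at 48 h, and 8.34, 6.56 and 6.84 at 72 h. In wild-type cells IL31RA read 5.54, 5.60 and 5.29 untreated, 6.70, 6.68 and 6.63 at 48 h, and 6.33, 6.43 and 6.71 at 72 h. The groups do not overlap, and knockout 72 h replicate 1 stood 1.5 above the next array. IL31RA rose 2.21-fold at 48 h (1.15 ± 0.31, adjusted p = 0.00729) and 3.36-fold at 72 h (1.75, adjusted p = 0.000318) in knockout cells. In wild-type cells IL31RA rose 2.29-fold at 48 h (adjusted p = 0.00591) and 2.02-fold at 72 h (adjusted p = 0.014), the last call being lost without untreated replicate 3 or 72 h replicate 3 (adjusted p of at most 0.054). Without knockout 72 h replicate 1 the gain at 72 h was 1.20, also called.

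IL6ST, the gp130 chain shared by the receptors for IL-6, IL-11, leukemia inhibitory factor and oncostatin M, moved in both directions within groups. It read 6.65, 6.60 and 6.55 in untreated knockout cells, 5.73, 5.41 and 7.12 at 48 h, and 6.59, 5.71 and 6.71 at 72 h. In wild-type cells IL6ST read 6.51, 6.55 and 6.53 untreated, 6.24, 6.20 and 7.34 at 48 h, and 7.27, 5.99 and 7.24 at 72 h. Replicate 3 was above and replicate 2 below the untreated arrays in all 4 ATRA groups, and the SD of 0.91 in knockout cells at 48 h was the highest of any receptor gene there. None of its changes was called, and their 95% intervals reached from -1.41 to 1.20.

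IL6R, the ligand-binding chain for IL-6, was called higher in wild-type cells at 72 h; its arrays are given because its values were seen to differ by genotype. In knockout cells IL6R read 8.33, 8.25 and 8.20 untreated, 8.14, 7.92 and 7.93 at 48 h, and 8.70, 8.08 and 7.99 at 72 h. In wild-type cells IL6R read 8.35, 8.27 and 8.28 untreated, 8.65, 8.57 and 8.86 at 48 h, and 9.24, 8.67 and 8.78 at 72 h. The wild-type ATRA arrays lay above their untreated arrays at both times, and the knockout arrays at 48 h lay below theirs. The change in wild-type cells was 0.39 ± 0.17 at 48 h (adjusted p = 0.0806) and 0.60 ± 0.17 at 72 h (adjusted p = 0.0105), the call at 72 h being lost without 72 h replicate 1 (adjusted p = 0.0605). In knockout cells IL6R was -0.26 ± 0.17 at 48 h (adjusted p = 0.229) and 0.00 at 72 h.

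IL12RB1, a chain shared by the receptors for IL-12 and IL-23, rose by 0.69 and 0.53 in knockout cells and by 0.82 and 0.75 in wild-type cells at 48 and 72 h, each ± 0.11. Its largest adjusted p was 0.00172, and its calls held in every alternative. Its partners were not called higher. IL12RB2, which completes the IL-12 receptor, was not called. IL23R, which completes the IL-23 receptor, was called lower in wild-type cells at 48 h (-0.72 ± 0.22, adjusted p = 0.0181) and 72 h (-0.78, adjusted p = 0.0105). Both IL23R calls were lost without single arrays (adjusted p of at most 0.0808). IL11RA, the chain specific to IL-11, was called higher in every ATRA comparison (0.70 and 0.45 in knockout, 0.43 and 0.54 in wild-type cells at 48 and 72 h). IL27RA, a chain for IL-27, was called lower in every one (-0.65 and -0.61 in knockout, -0.52 and -0.66 in wild-type cells). For IL11RA the calls in knockout cells at 72 h and in wild-type cells at 48 h were lost without single arrays (adjusted p of at most 0.149), and for IL27RA that in wild-type cells at 48 h was lost under quantile normalization (adjusted p = 0.0503).

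In the IL-1 family the genes called higher at 72 h were the accessory chains IL18RAP and IL1RAP. IL18RAP, the accessory chain of the IL-18 receptor, read 5.67, 5.43 and 5.31 in untreated knockout cells, 6.30, 6.0 and 7.07 at 48 h, and 7.64, 6.29 and 7.02 at 72 h. In wild-type cells IL18RAP read 5.30, 5.06 and 5.45 untreated, 6.17, 6.30 and 7.35 at 48 h, and 6.34, 6.58 and 7.24 at 72 h. All ATRA arrays lay above all untreated ones. In knockout cells IL18RAP rose by 0.99 ± 0.36 at 48 h (adjusted p = 0.0373) and 2.85-fold at 72 h (1.51, adjusted p = 0.00329). In wild-type cells IL18RAP rose 2.53-fold at 48 h (1.34, adjusted p = 0.00786) and 2.73-fold at 72 h (1.45, adjusted p = 0.00402). The knockout call at 48 h was lost under both rescalings and without any of 5 arrays (adjusted p of at most 0.158), and the other 3 held in every alternative.

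IL18R1, the chain that binds IL-18, was not called, with 0.38 ± 0.34 in knockout and 0.66 ± 0.34 in wild-type cells at 72 h (adjusted p = 0.381 and 0.129). IL1RAP, the accessory chain shared by the receptors for IL-1, IL-33 and IL-36, rose 1.79-fold at 72 h in knockout cells (0.84 ± 0.25, adjusted p = 0.0123) and 1.94-fold in wild-type cells (0.96, adjusted p = 0.00506), calls that held in every alternative. In wild-type cells IL1RAP was also called at 48 h (0.79, adjusted p = 0.0177), which was lost without untreated replicate 1 or 48 h replicate 3 (adjusted p of at most 0.0917). IL1R1, the signalling receptor of IL-1, was called higher in wild-type cells at 48 h (0.78 ± 0.22, adjusted p = 0.00992) and lost that call under quantile normalization (adjusted p = 0.118). IL1RL1, the IL-33 receptor, was called lower there (-0.54 ± 0.17, adjusted p = 0.0218), and lost it without any of 3 arrays (adjusted p of at most 0.0779). The decoy IL1R2, the IL-36 receptor IL1RL2 and the receptor-like IL1RAPL1 and IL1RAPL2 were not called. IL36RN itself was called higher in knockout cells at 48 h (0.42 ± 0.12, adjusted p = 0.00896) and in wild-type cells at 72 h (0.36, adjusted p = 0.0205), the second call being lost under quantile normalization, with the compared groups alone and without any of 3 arrays (adjusted p of at most 0.0959).

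The IL-17 family held the strongest loss. IL17RA, the chain common to the receptors of IL-17A, IL-17C, IL-17E and IL-17F, read 9.62, 9.73 and 9.63 in untreated knockout cells, 7.46, 7.32 and 7.98 at 48 h, and 8.03, 7.29 and 8.04 at 72 h. In wild-type cells IL17RA read 9.74, 9.74 and 9.78 untreated, 7.55, 7.17 and 7.86 at 48 h, and 7.51, 7.47 and 7.98 at 72 h. The lowest untreated array was 1.58 above the highest ATRA array. In knockout cells IL17RA was 4.21-fold lower at 48 h (-2.07 ± 0.22, adjusted p = 2.56e-06) and 3.66-fold lower at 72 h (-1.87, adjusted p = 7.23e-06). In wild-type cells IL17RA was 4.68-fold lower at 48 h (-2.23, adjusted p = 1.14e-06) and 4.29-fold lower at 72 h (-2.10, adjusted p = 1.72e-06), and the 4 calls held in every alternative run.

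IL17RE, which pairs with IL17RA for IL-17C, fell in all 4 comparisons as well, by 0.92 and 0.99 in knockout cells and by 0.75 and 0.63 in wild-type cells at 48 and 72 h, each ± 0.17. Its calls held in every alternative. IL17RC, the partner of IL17RA for IL-17A and IL-17F, was not called, and its changes ran from -0.23 to 0.10, each ± 0.13. IL17RB, the chain for IL-17E, IL17RD and IL17REL were not called.

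The receptors that use the common gamma chain, or share chains with them, held 1 gene with a called change of 2-fold. IL2RG, the common gamma chain itself, read 10.88, 10.85 and 10.93 in untreated knockout cells, 9.71, 10.33 and 10.44 at 48 h, and 10.31, 9.90 and 10.44 at 72 h. In wild-type cells IL2RG read 10.94, 10.89 and 10.87 untreated, 9.69, 9.43 and 10.58 at 48 h, and 10.37, 9.94 and 10.52 at 72 h. Every ATRA array lay below every untreated array of its genotype. It was 2-fold lower in wild-type cells at 48 h (-1.0 ± 0.25, adjusted p = 0.00458), a call that held in every alternative. In knockout cells IL2RG was called at 48 h (-0.73, adjusted p = 0.0273) and 72 h (-0.67, adjusted p = 0.0393). Both knockout calls were lost under quantile normalization and when single arrays were left out (adjusted p of at most 0.18), and the wild-type change at 72 h was -0.62 (adjusted p = 0.0512).

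IL7R, the alpha chain for IL-7, was called higher in knockout cells at 48 h (0.61 ± 0.20, adjusted p = 0.0227) and 72 h (0.80, adjusted p = 0.00479) and in wild-type cells at 72 h (0.57, adjusted p = 0.029). IL13RA1, which pairs with IL4R to bind IL-13, was called lower in knockout cells at 48 h (-0.76 ± 0.16, adjusted p = 0.00167) and in wild-type cells at 48 h (-0.47, adjusted p = 0.0329) and 72 h (-0.42, adjusted p = 0.0484). IL15RA was called higher at 48 h in both genotypes (0.41 and 0.36, each ± 0.13). IL4R was called lower in knockout cells at both times (-0.35 and -0.38, each ± 0.13). IL2RB was called lower in wild-type cells at 48 h (-0.46 ± 0.16) and IL2RA higher at 72 h (0.46 ± 0.16). Of these calls, those of IL7R in knockout cells at 72 h and of IL13RA1 in knockout cells at 48 h held in every alternative. The other calls were each lost without at least 1 array, with adjusted p of up to 0.546 for IL13RA1 in wild-type cells at 72 h under quantile normalization. IL9R, IL21R and the decoy IL13RA2 were not called.

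Placed side by side by receptor complex, both chains were called higher in both genotypes for the IL-10 receptor only, among the 11 pairs plotted for 72 h. For 8 of the other pairs the 2 chains had unlike calls in at least 1 genotype: IFNGR1 was called higher without IFNGR2, IL18RAP without IL18R1, IL1RAP without IL1R1, IL12RB1 without IL12RB2, CSF2RB without CSF2RA and IL6R without IL6ST (the last 2 in wild-type cells), IL17RA fell without IL17RC, and IL2RG without IL2RB (in knockout cells). IL20RA and IL20RB were called in opposite directions in wild-type cells. There the IL20RB call was lost with a replicate block in the model and when any 1 of its arrays was left out. The IL10RA call in knockout cells was lost in 6 of 16 alternatives. The calls of CSF2RB and IL6R in wild-type and of IL2RG in knockout cells were also lost without single arrays. With 32% of the 50 genes called in knockout and 44% in wild-type cells at 72 h, unlike calls also arise between genes of different receptors. Their number among other pairs was not counted, so the number of unlike pairs is not a result about receptor complexes. The difference between 2 chains was not tested, and an open symbol gives no evidence that a chain held its level. The means of the uncalled IL1R1, IL12RB2 and IL18R1 lay at percentiles 11.6, 20.4 and 30 of all probe sets. Whether these 3 chains are expressed was not tested.

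**Figure D3:**
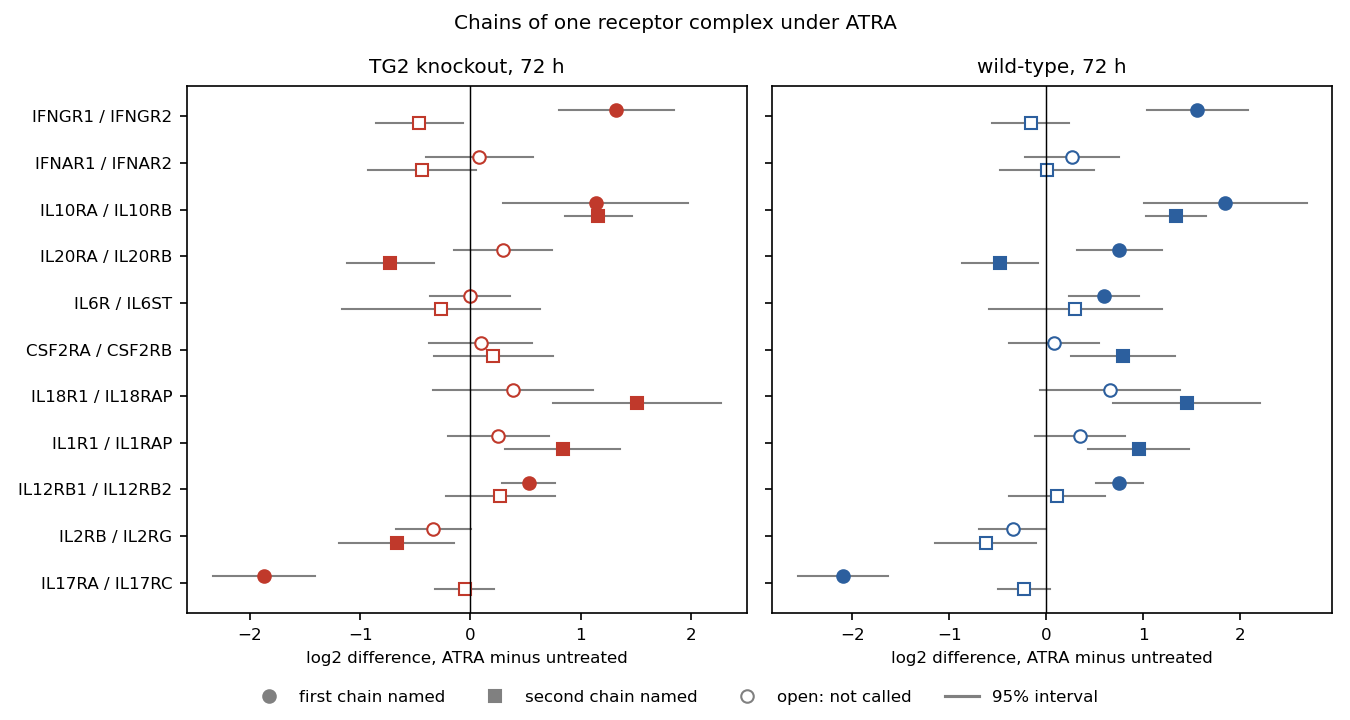
Log2 difference from untreated cells at 72 h, with 95% intervals from limma, for chains of 11 receptor complexes, in knockout (left) and wild-type (right) cells; filled symbols were called. IL10RA and IL10RB are filled and above 0 in both panels, whereas IFNGR1 (1.32 and 1.56) stands beside an open IFNGR2 (-0.46 and -0.16).

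Many of these genes are neighbours on their chromosomes, and the calls of neighbours are given as a description, since 38.9% to 44% of all probe sets were called in an ATRA comparison. IFNAR2, IL10RB, IFNAR1 and IFNGR2 follow each other on chromosome 21 with no coding gene between them in RefSeq, and IL10RB is the one that was called higher. IL1R2, IL1R1, IL1RL2, IL1RL1, IL18R1 and IL18RAP follow each other on chromosome 2, and at 72 h IL18RAP was the one called. IL31RA, which rose, lies next to IL6ST, which was not called, on chromosome 5. On chromosome 6 IFNGR1 lies next to IL22RA2, which was not called, and beyond it IL20RA. On chromosome 3 IL17RE, which fell, lies next to IL17RC, which was not called. IL23R, called lower in wild-type cells, lies next to IL12RB2, which was not called, and IL4R, called lower in knockout cells, next to IL21R, which was not called. IL15RA, called higher at 48 h in both genotypes, lies next to IL2RA, called higher in wild-type cells at 72 h. CSF2RA, which was not called, lies next to IL3RA, called lower in wild-type cells at 48 h.

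The promoters were searched, on both strands, for the letters GAGGAA (the core bound by PU.1), TTNNGNAA (C/EBP), TTCNNNGAA (STAT), GAAANNGAA (the core of the interferon-stimulated response element) and for direct repeats of the retinoic acid response element. RefSeq promoter windows of 300 bases were at hand for 43 of the 50 genes. CSF2RB, IFNAR2, IL13RA2, IL17RA, IL23R, IL2RB and IL31RA had none. The PU.1 core was found in 17 of the 43 windows, beside 27.6% of 27195 windows in the table, and the C/EBP letters in 22, beside 37.2%. The STAT letters were found in 3 (IL10RB, IL15RA and IL3RA), beside 7.89%, and the response element core in 2 (IL18RAP and IL3RA), beside 8.3%. The retinoic acid repeat was in none, beside 0.0221%. In the stretches printed above, CSF3R holds the C/EBP letters 3 times, IL10RB holds the PU.1 core 2 times in direct succession, and IL18RAP holds the C/EBP letters 2 times, the first overlapping the response element core. The STAT letters of IL10RB and a PU.1 core of IL18RAP lie within the first 50 transcribed bases, which are not printed. A match is a run of letters and not a measured binding site.

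Between the genotypes no receptor gene was called at any time. With limma over all 18 arrays, knockout against wild-type gave 0 called receptor genes in untreated cells (0.00601% of all probe sets called), 0 at 48 h (0.021%) and 0 at 72 h (0.0961%). At an unadjusted p under 0.05 the counts were 0 untreated (1.15% of all probe sets), 4 at 48 h (5.92%) and 13 at 72 h (26% of the 50, beside 11.2% of all probe sets). Those at 48 h were IFNAR2, IL10RB, IL13RA2 and IL6R, all lower in knockout cells. Those lower in knockout cells at 72 h were CSF1R, CSF2RB, IFNAR2, IL10RB, IL12RB1, IL17RD, IL17RE, IL17REL, IL2RA, IL4R and IL6R. Higher there were IL22RA2 and IL31RA. At 72 h 15 of the 50 differences were above 0 and 35 below, with a median of -0.09, beside 51.4% of all probe sets above 0 and a median of 0.01. All of these genes were read on the same 6 arrays. The lowest differences at 72 h were those of CSF1R, IL10RA, CSF2RB and IL6R.

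CSF1R at 72 h was 5.97 to 6.37 in knockout and 6.63 to 7.52 in wild-type arrays, with no overlap. The difference was -0.95 ± 0.20 (95% interval -1.39 to -0.52, unadjusted p = 0.000259, adjusted p = 0.099). Its error rests on the spread of all 6 groups. The SD of CSF1R at 72 h was 0.22 in knockout and 0.48 in wild-type arrays, beside 0.04 and 0.06 in the untreated ones. The error and interval can thus be too small for these 6 arrays. With the compared groups alone, 0 receptor genes and 0 probe sets in all were called at 72 h. Without wild-type 72 h replicate 2, the lowest wild-type array, the difference was -1.23 ± 0.18 and called (adjusted p = 0.00896, with 0.378% of all probe sets called). Leaving out that array had to widen the difference, and of 6 fits with an array left out it was the only 1 with a call. Beside CSF1R, the mean of the 6 monocyte and macrophage markers at 72 h was 6.19 to 6.33 in knockout and 6.46 to 6.76 in wild-type arrays. Of the 6, 0 were called between the genotypes. The part of these markers in the CSF1R values was not tested.

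IL6R was 7.92 to 8.14 in knockout and 8.57 to 8.86 in wild-type arrays at 48 h, a difference of -0.70 ± 0.17 (adjusted p = 0.366) with no overlap. At 72 h it was -0.64 ± 0.17 (adjusted p = 0.177), and the groups overlapped. CSF2RB differed by -0.74 ± 0.25 at 72 h (adjusted p = 0.288) and IL10RA by -0.80 ± 0.40 (adjusted p = 0.477). IFNAR2 differed by -0.63 ± 0.23 at 48 h (adjusted p = 0.707), with every knockout array below every wild-type array. IL31RA differed in the other direction at 72 h, by 0.76 ± 0.31 (adjusted p = 0.364). The neutrophil maturation markers stood lower in knockout cells too, with a median difference of -0.57 at 48 h and -0.49 at 72 h and 0 of 6 called, and their part in these values was not tested.

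**Figure D4:**
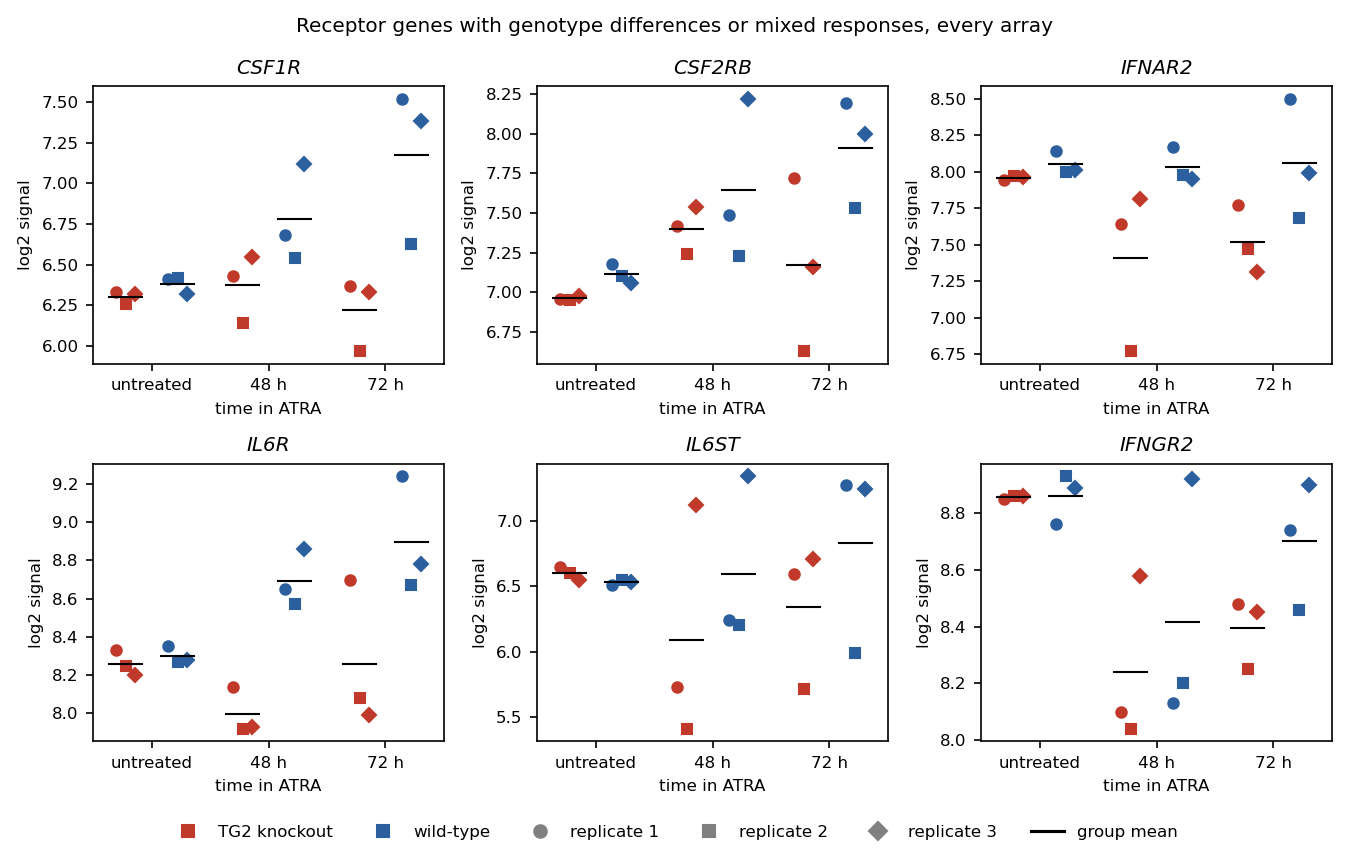
Log2 signal of every array for CSF1R, CSF2RB, IFNAR2, IL6R, IL6ST and IFNGR2, with knockout (red) left of wild-type (blue) at each time and a bar at the mean of 3 arrays. The knockout CSF1R arrays at 72 h (5.97 to 6.37) lie below the wild-type ones (6.63 to 7.52), and the IL6ST arrays of one ATRA group lie up to 1.71 apart.

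Untreated CSF3R was higher in knockout cells, at 8.04 to 8.08, than in wild-type cells, at 7.66 to 7.73. In the fit over 18 arrays this difference of 0.35 ± 0.21 was not called (adjusted p = 1). In a fit of the 6 untreated arrays alone, whose spread is smaller, it was 0.35 ± 0.05 and called (adjusted p = 0.0194, with 0.853% of all probe sets called). With a separate weight for each group it was not called (adjusted p = 0.0596). The CSF3R response to ATRA differed between knockout and wild-type cells by -0.71 ± 0.29 at 48 h and by -0.61 ± 0.29 at 72 h, neither called (adjusted p = 0.9998 each).

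**Figure D5:**
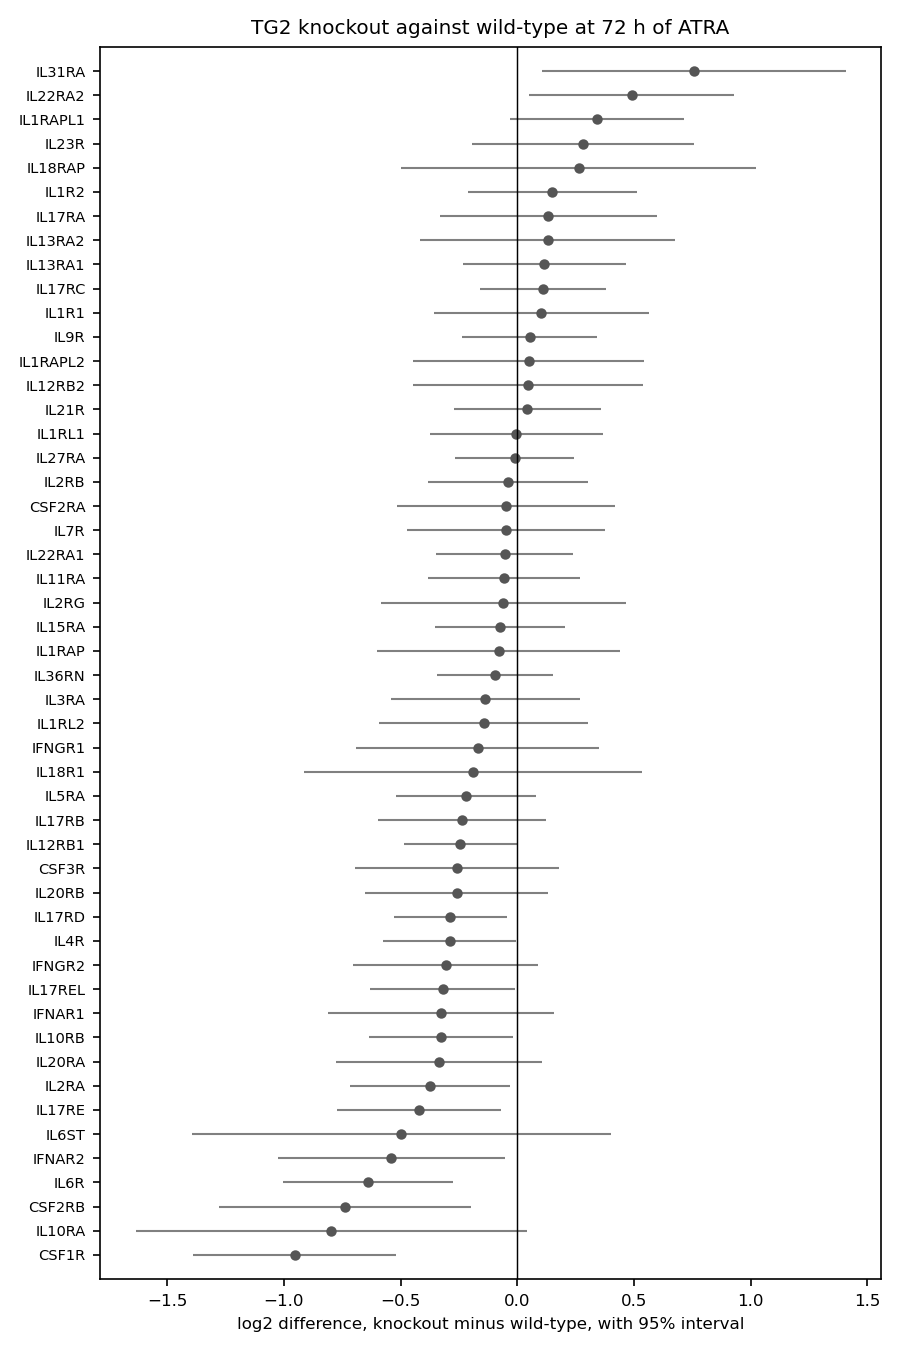
Difference between knockout and wild-type cells at 72 h of ATRA for all 50 genes, in order of size, with 95% intervals from limma. Before adjustment for the 33297 probe sets the intervals of 13 genes exclude 0. Among them are CSF1R (-1.39 to -0.52), IL6R (-1.0 to -0.28) and CSF2RB (-1.28 to -0.20) below 0, and IL31RA and IL22RA2 above 0. No gene passed that adjustment.

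The response to ATRA was also compared between the genotypes directly. No receptor gene was called at 48 h (0.003% of all probe sets) or at 72 h (0%), and 2 genes each had an unadjusted p under 0.05 (2.88% and 4.66% of all probe sets): CSF3R and IL6R at 48 h, and CSF1R and IL6R at 72 h. The CSF1R response differed by -0.87 ± 0.29 at 72 h (unadjusted p = 0.00814, adjusted p = 0.9998). Calls made in a single genotype, such as those of IL23R in wild-type and IL4R in knockout cells, are thus not shown to differ between them. Between 48 and 72 h no receptor gene was called in knockout or in wild-type cells (0% of all probe sets in each). At an unadjusted p under 0.05 there were IL5RA and IL17REL in knockout cells (8.2% of all probe sets) and IL2RA in wild-type cells (5.86%).

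The replicates of each ATRA group were also compared by the change of its called receptor genes. Such counts were not made over all called probe sets, so they are not a result about receptors. In knockout cells at 72 h replicate 2 had the smallest change in 11 of the 16 called receptor genes. In wild-type cells at 72 h replicate 2 had it in 10 of 22 and replicate 1 in 9. At 48 h replicate 3 had it in 9 of 20 genes in knockout cells. In wild-type cells at 48 h the counts were near even, at 6, 6 and 8 of 21 for replicates 1, 2 and 3, with 1 tie. There replicate 3 averaged the largest change in the called direction, 1.01, beside 0.92 and 0.94 for replicates 1 and 2. The averages in knockout cells at 48 h were 0.85, 0.79 and 0.79 for replicates 1, 2 and 3. Replicate 2 averaged a change of 0.89 in the called direction in knockout cells at 72 h, beside 1.18 for replicate 1 and 1.02 for replicate 3. In wild-type cells at 72 h replicate 2 averaged 0.80, beside 1.01 and 1.08 for replicates 1 and 3.

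The partners of these receptors were read from lists chosen by function. Their counts at 72 h stand beside 22.8% of all probe sets called higher and 19.2% lower in knockout cells, and 23.1% higher and 21% lower in wild-type cells, and a share near these is not a result about a list. Of 41 measured ligands, 11 were called higher in knockout cells at 72 h and 14 in wild-type cells, and 0 lower in either, with a median change of 0.32 and 0.35 beside 0.13 and 0.12 for all probe sets. CSF1, a ligand of CSF1R, was called in wild-type cells at 72 h (1.09, beside 0.59 and no call in knockout cells), as were IL5, an eosinophil growth factor (1.15 in knockout and 1.00 in wild-type cells), IL26, which binds through IL10RB and IL20RA (1.00 and 0.90), and IL7 (0.67 and 0.80). Of 10 measured Janus kinases, STATs and the STAT partner IRF9, 4 were called higher and 2 lower in knockout cells at 72 h, and 5 higher and 0 lower in wild-type cells. TYK2, the kinase bound by IFNAR1, IL10RB and IL12RB1, rose by 1.13 in knockout and by 1.29 in wild-type cells at 72 h. IRF9, a transcription factor of the interferon response, rose by 0.88 and 1.28, and STAT4, the STAT of IL-12, by 0.51 and 1.05. JAK2, the kinase of CSF2RB and IFNGR2, was called in wild-type cells at 72 h (0.71, beside 0.27 and no call in knockout cells).

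Of 20 measured inhibitors of cytokine signalling, 1 was called higher and 7 lower in knockout cells at 72 h, and 3 higher and 6 lower in wild-type cells. PTPN2, a phosphatase of Janus kinases and STATs, changed by -0.99 in knockout and -1.22 in wild-type cells, PIAS2 by -0.72 and -1.02 and PIAS1 by -0.97 and -0.86, both inhibitors of STATs. SOCS4 changed by -0.86 and -0.84. Of 10 measured signalling genes below the IL-1 and IL-17 receptors, 1 was called higher and 5 lower in knockout cells at 72 h, and 2 higher and 4 lower in wild-type cells. IRAK3, a kinase-dead inhibitor of this pathway, fell by 1.41 in knockout and by 1.80 in wild-type cells, TAB3, an adaptor of the kinase MAP3K7, by 1.08 and 1.44, and the ubiquitin ligase TRAF6 by 0.71 and 0.91. IRAK1, the kinase recruited by MYD88, rose by 0.75 and 0.88. Of 10 measured other cytokine receptors, 2 were called higher and 0 lower in each genotype at 72 h. Among them CRLF3, a cytokine receptor-like protein, rose by 1.08 in knockout and by 1.23 in wild-type cells, and OSMR, the partner of IL31RA, was called in wild-type cells (0.43, beside 0.32 and no call in knockout cells).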

How the data were processed

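RNA from 18 NB4 cultures was labelled as single-stranded cDNA and hybridised to whole-transcript arrays, per the labels' protocols. The deposited log2 values, which the authors made from the scanned arrays, run from 0.73 to 13.56. The summarising and normalization method is not given in the sources used here, and the log2 scale was read from the values. The file holds no detection call or background signal, so the number of arrays limits precision and dim genes cannot be marked. Among the genes called under ATRA, means lay low among all probe sets for IL1R1 (percentile 11.6), IL23R (12.8), IL5RA (16.8) and IL7R (19.3). The same holds for IL1RL1 (20.3), IL20RA (26.8) and IL2RA (30.9). Whether these genes are expressed was not tested. Probe sets were named through the platform's annotation: 19460 of 33297 had 1 gene, 1754 several and 12083 none.

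A linear model held a mean for each group (limma 3.58.1, R 4.3.3, 18 arrays), with a mean-variance trend. P-values were two-sided and adjusted by Benjamini-Hochberg over all 33297 probe sets of a comparison, with calls at 0.05. Errors after ± are standard errors of the fitted difference, with 3 arrays per group. Their spread was estimated over all 6 groups together, and untreated arrays varied less than ATRA arrays. Errors and intervals of comparisons between ATRA groups can therefore be too small. Figures were drawn with matplotlib 3.10.9 in Python 3.11.15. The fitting was tested on simulated data. The members and gene lists were chosen with earlier results of these data known. Given array by array are genes called at 2-fold or more under ATRA, the receptors of colony-stimulating factors and interferons, and IL6ST. IL6R was added after its values were seen. Of each partner list, up to 4 called genes with the largest change in wild-type cells at 72 h are named. Alternatives were other normalization, filters, variance models, a replicate block and single arrays left out.

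Replicate numbers come from the labels, which do not say that a number marks a shared culture or day. Same-numbered knockout and wild-type arrays deviated together at 72 h (r across probe sets 0.103, 0.16 and 0.138). At 48 h they did so about as much (0.196, 0.194 and 0.089), with replicate 3 under the cut of 0.1. No same-numbered pair passed 0.1 in the other comparisons.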

Additional observations from a re-analysis of the deposited data

Results flagged for a closer look

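IL6R, the ligand-binding chain for IL-6, had changes of opposite sign in the arrays of the genotypes after 48 h of ATRA, a pattern seen in the data before it was described. Every knockout array lay below the mean of its untreated group, by 0.12 to 0.34 (changes of -0.34 to -0.12), and every wild-type array lay above its own, by 0.27 to 0.56. The difference between the responses was -0.66 ± 0.24 (SE, limma, unadjusted p = 0.0155), and it did not pass adjustment over all probe sets (adjusted p = 0.9998). At 72 h the pattern did not recur: the knockout arrays read 8.70, 8.08 and 7.99, on both sides of their untreated mean of 8.26. How many other genes have this pattern at 48 h was not counted. Groups of 3 arrays were too small to be screened for outlying arrays.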

How the results depend on the processing

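None of the 79 calls turned its direction in 1241 refitted values. Filters, variance models, the replicate block and the compared groups alone leave the difference itself unchanged, so those fits could not turn it. Taking the probe set with the lowest mean repeated the main fit, since second probe sets had the same values. Of the calls, 47 held in every alternative, 32 were lost in at least 1, and 139 values missed the threshold. Leaving out single arrays gave 13 to 22 called receptor genes in knockout cells at 48 h, against 20 with all arrays (13 without untreated knockout replicate 2). In wild-type cells at 72 h it gave 14 to 19, against 22 (14 without untreated wild-type replicate 3). It gave 12 to 16 in knockout cells at 72 h and 14 to 19 in wild-type cells at 48 h. Between the genotypes at 72 h it gave 0 to 1, the 1 being CSF1R without wild-type 72 h replicate 2, and it gave 0 in the other comparisons. Fitting the compared groups alone gave 1 call between untreated genotypes, CSF3R, where the spread came from untreated arrays only; otherwise the cause of a lost call was not tested. The other settings gave 15 to 25, 15 to 19, 14 to 24 and 16 to 27 calls in knockout at 48 and 72 h and wild-type at 48 and 72 h. Centring gave 9 higher and 10 lower in knockout cells at 48 h, in place of 12 and 8. Brighter probe sets alone gave 10 higher and 4 lower in wild-type cells at 48 h, in place of 12 and 9. That setting tested only 26 of the receptor genes, and a gene it left out could not be called. Its counts of 15, 15, 14 and 16 are the lower ends of the ranges above, so they are not comparable with counts over all receptor genes. Quantile normalization, which kept all receptor genes, gave 16, 15, 19 and 20 in the same order. The pairing check bears on the replicate block for the genotypes at 48 and 72 h. With the block, 23 and 18 receptor genes were called in knockout and 23 and 22 in wild-type cells at 48 and 72 h. Between the genotypes it gave 0 at 48 h (5 probe sets in all, beside 7 without the block) and 0 at 72 h (29, beside 32). In that fit the IL20RB call in wild-type cells at 72 h was not made (-0.48, adjusted p = 0.06). Over all probe sets, counts fell to 8699, 8454, 7942 and 8921 where probe sets of 1 gene alone were tested, and to 9534, 8827, 8975 and 9601 for the brighter ones, since fewer were tested. Between untreated genotypes 2 probe sets became 284 with the compared groups alone and 309 with a weight per group, at 48 h 7 became 0 to 7 over these other settings, and at 72 h 32 became 0 to 53. For the difference of responses at 72 h, 0 became 3 with the compared groups alone, and for 72 against 48 h in knockout cells 0 became 3 without the mean-variance trend. Without a detection call, a missed change in a dim receptor gene cannot be told from a level below what the array measures.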
